A study of Arabidopsis thaliana with 9 samples.

Results

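Described here are 9 Arabidopsis thaliana genes of the EDS1-PAD4 node and of salicylic acid synthesis, taken by locus identifier from a table of 33610 genes measured in 9 leaf libraries. They are EDS1 (AT3G48090), its paralogue AT3G48080, PAD4 (AT3G52430), SAG101 (AT5G14930), SARD1 (AT1G73805), CBP60G (AT5G26920), ICS1 (AT1G74710), EDS5 (AT4G39030) and PBS3 (AT5G13320). All 9 were present in the table, and all 9 had a mean of at least 1 FPKM (fragments scaled by gene length and library depth) over the libraries and so were tested. Leaves were detached from 30-day-old rosettes grown at 13 h light and 11 h dark and were not infected. The genotypes were the wild type Col-0 (WT), the line VQ28KO12, labelled as a knockout of VQ28, and the line VQ28OE9, labelled as overexpressing it, with 3 libraries each. Each altered genotype is 1 line. The sources used here do not give how either line was made or which promoter drives VQ28 in VQ28OE9. Nothing in the labels ties a library to a plant of its own, and p-values therefore reflect only the spread among these libraries, which may be technical.

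Salicylic acid is a plant hormone that builds up in leaves attacked by biotrophic pathogens and switches on local and systemic defence. In Arabidopsis the lipase-like protein EDS1 pairs with either PAD4 or SAG101 to pass on signals from intracellular immune receptors. The transcription factors SARD1 and CBP60G switch on ICS1 and its companion genes, ICS1 makes isochorismate from chorismate in the plastid, EDS5 exports it to the cytosol, and PBS3 joins it to glutamate to give the direct precursor of salicylic acid. VQ28 encodes a small protein of the VQ family, whose members bind WRKY transcription factors.

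The libraries held between 64552605 and 95223547 count units. VQ28 (locus AT4G20000 in the family's naming) stood at 4665 to 6244 FPKM in VQ28OE9 and at 0.456 to 8.70 FPKM in WT. Of the libraries labelled VQ28KO12, replicate 3 had 0 units of it, while replicates 1 and 2 held 8.36 and 10.15 FPKM, beside 8.70 in the highest WT library. Replicates 1 and 2 thus show no loss of VQ28 mRNA. As how the line was made is not given, the mRNA cannot show whether the protein was lost. WT replicate 3 and VQ28OE9 replicate 3 stood apart from the other 7 libraries on the second principal component, which held 16.7% of the variance. All 5 fixed markers of green leaf tissue were abundant, at no less than 2655 FPKM in any library. Their summed level was 27793 to 30538 FPKM in WT, 25919 to 30833 in VQ28KO12 and 22959 to 25944 in VQ28OE9. In this sum VQ28OE9 lay below every WT library, as it did for RBCS1A and CA1 singly. The markers LHCB1.1, RCA and PSBO1 overlapped between VQ28OE9 and WT. The sum of 4 guard cell markers was 13.9 to 15.5 FPKM in WT, 16.3 to 23.4 in VQ28KO12 and 19.7 to 24.0 in VQ28OE9. The markers did not move as one. FAMA and HT1 were higher in every VQ28OE9 library than in every WT library, and MYB60 overlapped. KAT1 also overlapped and had a lower mean in VQ28OE9, at 4.56 ± 1.32 FPKM against 5.23 ± 0.422 in WT. The sum of 3 epidermis markers, of which PDF1 was under 1 FPKM, was 101.4 to 125.2 FPKM in WT, 122.8 to 146.6 in VQ28KO12 and 84.2 to 100.1 in VQ28OE9, lower there than in every other library. The epidermal regulator gene ATML1 stood at 9.96 ± 1.44 FPKM in WT, 14.4 ± 1.01 in VQ28KO12 and 4.38 ± 0.939 in VQ28OE9. FDH overlapped between VQ28OE9 and WT, at 88.1 ± 7.16 and 105.1 ± 11.4 FPKM, and the low PDF1 was higher in VQ28OE9. The sum of 3 vascular markers overlapped, at 231.8 to 253.9, 200.4 to 243.6 and 232.7 to 277.6 FPKM. The part of these shifts in the results below was not tested, and in bulk leaves fewer cells of a type and less RNA per cell cannot be told apart. The 3 flower organ markers summed to at most 0.107 FPKM in any library and the 3 root markers to at most 5.91, with the root hair gene RHD6 at 0 units in all 9.

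EDS1, PAD4, SARD1 and CBP60G were the members that stood higher in all 3 VQ28OE9 libraries than in any WT or VQ28KO12 library by a mean of over 1 on the log2 scale, and ICS1 separated in the same way by less. Against WT, 1 of the 9 passed the test, PAD4. Against VQ28KO12, 4 passed, PAD4, SARD1, CBP60G and ICS1, all higher in VQ28OE9. Between VQ28KO12 and WT none passed. A gene is said to have risen or fallen here at an adjusted p under 0.05 (edgeR quasi-likelihood test over 16050 genes, Benjamini-Hochberg adjustment). By this rule 2.31% of all tested genes were called in VQ28OE9 against WT (1.37% higher, 0.935% lower) and 6.33% between VQ28OE9 and VQ28KO12 (3.71% higher, 2.62% lower). In VQ28KO12 against WT it was 0.00623%, all of it higher and 0% lower. All 3 VQ28OE9 libraries lay above all 3 WT libraries in 5 of the 9 members, against 13% of all tested genes, and above all 3 libraries labelled VQ28KO12 in 6 of the 9, against 12.1%. No member was lower without overlap in VQ28OE9, against 9.24% of tested genes relative to WT and 14.4% relative to VQ28KO12. ICS1 alone lay lower in all 3 libraries labelled VQ28KO12 than in all WT libraries (2.76% of tested genes), and no member lay higher in all 3 (8% of tested genes).

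**Figure D1:**
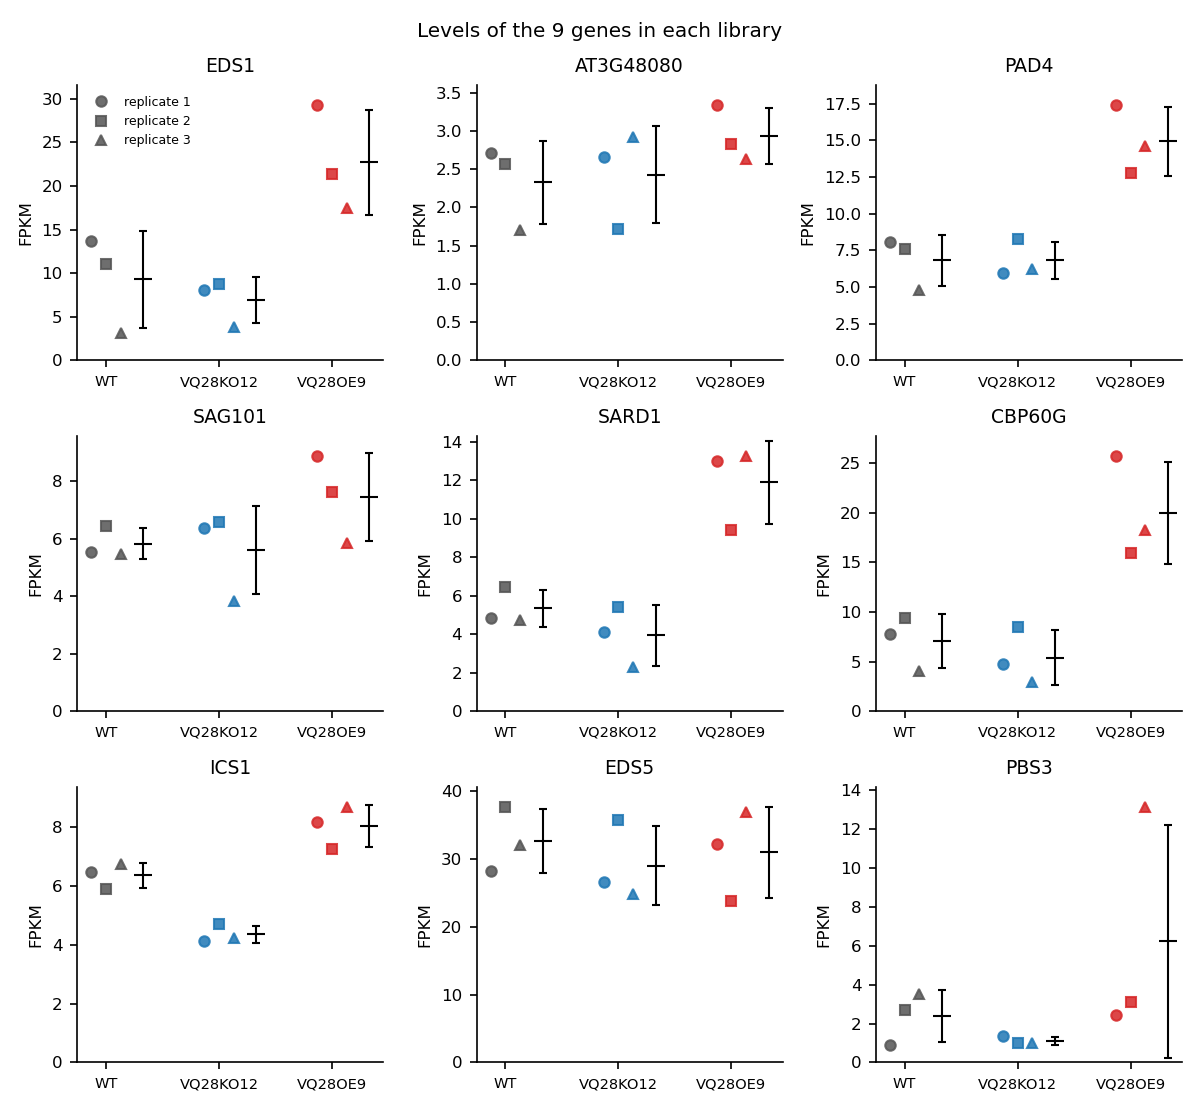
FPKM of each of the 9 genes (vertical axes) in WT, VQ28KO12 and VQ28OE9, with 1 point per library shaped by replicate number and the mean ± SD (n = 3) in black beside them. EDS1, PAD4, SARD1, CBP60G and ICS1 have all 3 VQ28OE9 points above all others, while EDS5 and AT3G48080 overlap between all genotypes.

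The lipase-like signalling proteins come first. EDS1 lies on chromosome 3 (17755374 to 17757780, minus strand, deposited coordinates), directly beside AT3G48080 (17752938 to 17755190, minus strand), with 183 bases between them. EDS1 stood at 13.7, 11.0 and 3.09 FPKM in WT replicates 1 to 3. In VQ28KO12 it had 8.07, 8.72 and 3.87 FPKM, and in VQ28OE9 29.3, 21.4 and 17.5 FPKM. WT replicate 3 was the lowest of all 9 libraries, and the VQ28OE9 libraries did not overlap with either other genotype. The WT libraries differed from each other 4.44-fold, and their SD on the log2(FPKM + 1) scale exceeded that of 99.3% of the tested genes. EDS1 had a fitted log2 fold change of 1.28 ± 0.47 (SE, 95% interval 0.23 to 2.33) in VQ28OE9 against WT and did not pass (edgeR adjusted p = 0.192), though it did with DESeq2 (adjusted p = 0.0456). Against VQ28KO12 the value was 1.76 ± 0.48 (0.69 to 2.83, adjusted p = 0.0596), also short of the threshold. Without WT replicate 3 the difference from WT was 0.86 (adjusted p = 0.299) and that from VQ28KO12 passed, at 1.76 (0.00976).

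AT3G48080 encodes a protein of the same lipase-like family as EDS1. It stood at 2.71, 2.57 and 1.70 FPKM in WT, at 2.66, 1.71 and 2.91 in VQ28KO12 and at 3.34, 2.82 and 2.63 in VQ28OE9. The 3 genotypes overlapped, and the highest library was 1.96-fold above the lowest. The log2 fold change in VQ28OE9 against WT was 0.31 ± 0.25 (95% interval -0.24 to 0.87, adjusted p = 0.592). EDS1 mRNA was 3.73 ± 1.70 times as abundant as AT3G48080 mRNA in WT, 3.15 ± 1.88 times in VQ28KO12 and 7.67 ± 1.07 times in VQ28OE9 (ratio of FPKM within a library, SD, n = 3). All 3 VQ28OE9 ratios lay above all others, with an exact two-sided permutation p = 0.1 against each genotype, the smallest that 3 against 3 libraries can give.

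Because the 2 copies lie side by side and share sequence, reads could in principle be assigned to the wrong one. Their coding sequences, read from the RefSeq annotation of TAIR10.1, align over 1859 bases with 84.0% identity. The longest stretch without a difference in this coding alignment is 44 bases. No window of 150 bases, the length of 1 read, is shared by their transcripts, which include the untranslated parts. Of the 50-base windows of the EDS1 transcript 0.919% occur in that of AT3G48080, so the transcripts share stretches longer than 44 bases. The window of 60 coding bases in which they differ most is shown to display how a read tells them apart, as coding bases 592 to 651 of each gene, 5′ to 3′, with the 21 differing bases in capitals. It lies at chr3:17756966-17757025 for EDS1 and chr3:17754415-17754474 for AT3G48080, minus strand, TAIR10.1.
EDS1: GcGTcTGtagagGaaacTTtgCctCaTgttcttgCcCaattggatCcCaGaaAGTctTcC
AT3G48080: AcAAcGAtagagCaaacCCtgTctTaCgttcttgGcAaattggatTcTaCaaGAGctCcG

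PAD4, which forms the complex with EDS1 that drives salicylic acid accumulation, lies on chromosome 3 (19431371 to 19434403, plus strand). It stood at 8.04, 7.61 and 4.80 FPKM in WT replicates 1 to 3, at 5.94, 8.27 and 6.24 in VQ28KO12 and at 17.4, 12.8 and 14.6 in VQ28OE9. The WT and VQ28KO12 libraries were interleaved, and every VQ28OE9 library lay above both. PAD4 rose by 1.12 ± 0.22 on the log2 scale (95% interval 0.63 to 1.61) in VQ28OE9 against WT (edgeR adjusted p = 0.0353) and was higher by 1.16 ± 0.22 than in VQ28KO12 (adjusted p = 0.0189). Between VQ28KO12 and WT the difference was -0.05 ± 0.22, with an interval of -0.53 to 0.44. The 2 comparisons with VQ28OE9 share its libraries, so they are not independent. The call against WT was lost without any of the 3 WT or 3 VQ28OE9 libraries, with adjusted p = 0.0635, 0.0616 and 0.0784 without WT replicates 1 to 3 and 0.125, 0.0540 and 0.0642 without VQ28OE9 replicates 1 to 3. It was also lost without the library labelled VQ28KO12 replicate 1 (0.0522) or 3 (0.0560), while its log2 fold change stayed between 0.92 and 1.24 over these settings.

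SAG101, the alternative partner of EDS1, which works with the helper receptor NRG1 in cell death, lies on chromosome 5 (4828640 to 4830857, plus strand). It stood at 5.54, 6.44 and 5.47 FPKM in WT, at 6.38, 6.58 and 3.84 in VQ28KO12 and at 8.88, 7.62 and 5.85 in VQ28OE9. VQ28OE9 replicate 3 lay within the WT range, so the groups overlapped. The log2 fold change was 0.33 ± 0.21 against WT (interval -0.14 to 0.81, edgeR adjusted p = 0.483) and 0.44 ± 0.21 against VQ28KO12 (-0.03 to 0.92, adjusted p = 0.270).

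The balance between the partners differed by library. PAD4 mRNA was 1.17 ± 0.287 times the level of SAG101 mRNA in WT, 1.27 ± 0.346 times in VQ28KO12 and 2.04 ± 0.414 times in VQ28OE9 (ratio of FPKM, SD, n = 3). EDS1 over SAG101 was 1.58 ± 0.962 in WT, 1.199 ± 0.169 in VQ28KO12 and 3.03 ± 0.251 in VQ28OE9. In both ratios every VQ28OE9 library lay above every other library (exact two-sided permutation p = 0.1 against each genotype, the smallest possible). PAD4 over EDS1 overlapped, at 0.943 ± 0.531 in WT, 1.099 ± 0.457 in VQ28KO12 and 0.676 ± 0.138 in VQ28OE9 (exact permutation p = 0.7 and 0.2). The third library had the highest PAD4 over EDS1 ratio in each genotype, at 1.55, 1.61 and 0.835. These exact tests cover 7 ratios in 3 comparisons. Every ratio that set VQ28OE9 above both other genotypes has EDS1, PAD4 or ICS1 as numerator. These mRNAs separated in the same way singly, so the ratios in part restate their levels.

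**Figure D2:**
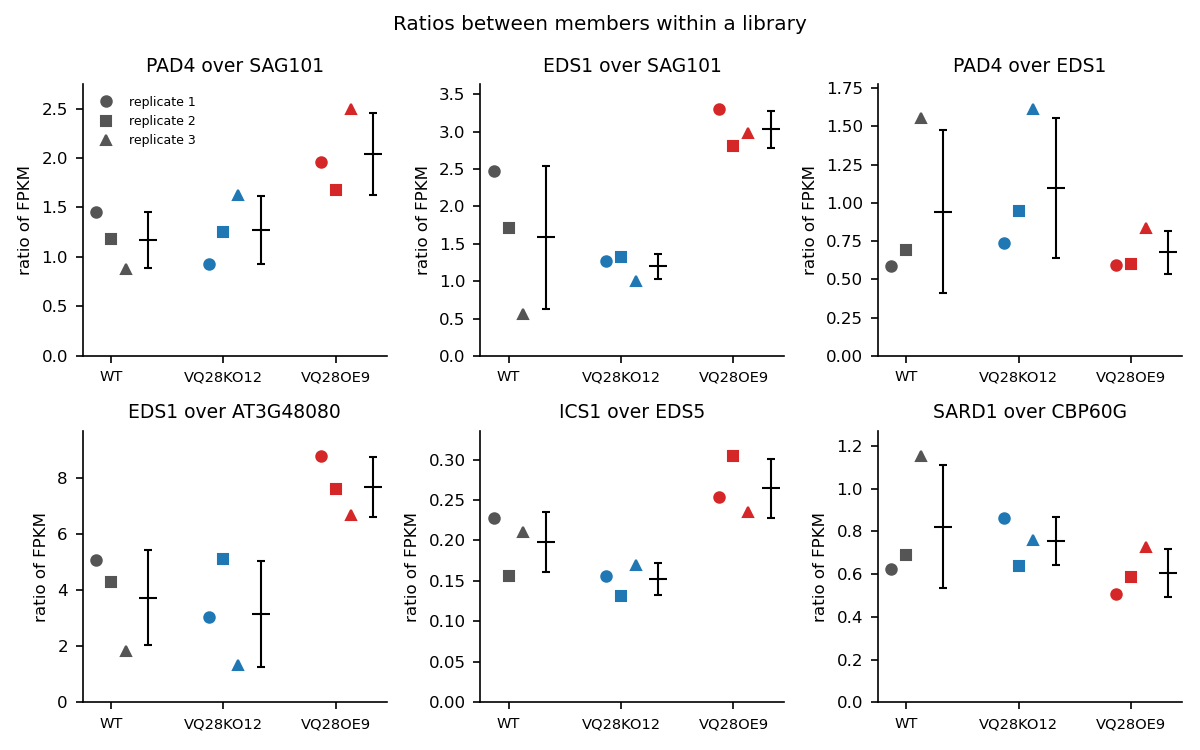
Ratios of FPKM between 2 members in the same library (vertical axes) for the 3 genotypes, with 1 point per library shaped by replicate number and the mean ± SD (n = 3) in black. PAD4 over SAG101, EDS1 over SAG101, EDS1 over AT3G48080 and ICS1 over EDS5 have all 3 VQ28OE9 points above all others, and PAD4 over EDS1 and SARD1 over CBP60G overlap.

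The transcription factors SARD1 and CBP60G are related proteins with overlapping roles as activators of ICS1 transcription, and CBP60G binds calmodulin. SARD1 lies on chromosome 1 (27745427 to 27749178, minus strand) and stood at 4.86, 6.48 and 4.74 FPKM in WT. It stood at 4.12, 5.42 and 2.29 FPKM in VQ28KO12 and at 13.0, 9.41 and 13.3 in VQ28OE9. Every VQ28OE9 library lay above all 6 others, and the library labelled VQ28KO12 replicate 3 was the lowest. SARD1 was higher in VQ28OE9 than in VQ28KO12 by 1.63 ± 0.29 on the log2 scale (95% interval 0.99 to 2.28, edgeR adjusted p = 0.0159). Against WT the value was 1.13 ± 0.28 (0.50 to 1.77) and did not pass (adjusted p = 0.0699), though it did with DESeq2 (0.00389).

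CBP60G lies on chromosome 5 (9475682 to 9478751, plus strand) and stood at 7.80, 9.38 and 4.11 FPKM in WT. It stood at 4.78, 8.48 and 3.01 FPKM in VQ28KO12 and at 25.7, 15.997 and 18.2 in VQ28OE9. The VQ28OE9 libraries again lay above all others, and WT and VQ28KO12 overlapped over most of their range. CBP60G was higher in VQ28OE9 than in VQ28KO12 by 1.92 ± 0.39 (interval 1.04 to 2.80, edgeR adjusted p = 0.0234) and did not pass against WT, at 1.48 ± 0.39 (0.61 to 2.35, adjusted p = 0.0801). With DESeq2 it passed against WT (adjusted p = 0.00276). SARD1 over CBP60G stood at 0.823 ± 0.289 in WT, 0.754 ± 0.112 in VQ28KO12 and 0.607 ± 0.112 in VQ28OE9, and the genotypes overlapped. On centred log2(FPKM + 1) values over the 9 libraries, SARD1 and CBP60G were the closest pair among the 36 pairs of members, with a root mean square difference of 0.301. The lead was slight, with SAG101 and ICS1 at 0.304 and PAD4 and SARD1 at 0.310.

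ICS1 encodes isochorismate synthase, the entry enzyme of the pathway, and lies on chromosome 1 (28070295 to 28074148, plus strand). It stood at 6.45, 5.88 and 6.73 FPKM in WT, at 4.13, 4.69 and 4.22 in VQ28KO12 and at 8.17, 7.25 and 8.67 in VQ28OE9. It was the one member whose 3 genotypes did not overlap at all, with VQ28KO12 lowest and VQ28OE9 highest. Its coefficient of variation was 6.79% in WT, 6.89% in VQ28KO12 and 8.98% in VQ28OE9, the lowest of the 9 members in each genotype. ICS1 was higher in VQ28OE9 than in VQ28KO12 by 0.92 ± 0.14 on the log2 scale (95% interval 0.61 to 1.22, edgeR adjusted p = 0.0100). Against WT it stood 0.32 ± 0.14 higher in VQ28OE9 (0.02 to 0.62, adjusted p = 0.258) and in VQ28KO12 the log2 fold change was -0.60 ± 0.14 (-0.90 to -0.29, adjusted p = 0.750), neither of which passed. DESeq2 called the difference between VQ28KO12 and WT (adjusted p = 0.0322), the only alternative of 19 that did.

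EDS5, the transporter, was the most abundant of the 9 mRNAs in WT, on chromosome 4 (18185667 to 18189224, plus strand). It stood at 28.3, 37.7 and 32.1 FPKM in WT, at 26.5, 35.7 and 24.8 in VQ28KO12 and at 32.1, 23.8 and 37.0 in VQ28OE9. The genotypes overlapped fully and the highest library was 1.58-fold above the lowest. The log2 fold change in VQ28OE9 was -0.09 ± 0.20 against WT (95% interval -0.54 to 0.36) and 0.13 ± 0.20 against VQ28KO12 (-0.32 to 0.58). EDS5 overlaps AT4G39040 on the opposite strand, and whether counting used the strand is not stated, so its level is uncertain. ICS1 over EDS5 was 0.198 ± 0.037 in WT, 0.152 ± 0.020 in VQ28KO12 and 0.265 ± 0.036 in VQ28OE9, with every VQ28OE9 library above every other (exact permutation p = 0.1 against each genotype, the smallest possible).

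PBS3, the enzyme that conjugates isochorismate to glutamate, lies on chromosome 5 (4267510 to 4271051, plus strand). It stood at 0.897, 2.71 and 3.51 FPKM in WT, at 1.34, 0.979 and 0.982 in VQ28KO12 and at 2.42, 3.12 and 13.1 in VQ28OE9. VQ28OE9 replicate 3 alone lay far above the rest, and the other 2 VQ28OE9 libraries lay within the WT range. The log2 fold change against WT was 1.38 ± 0.65 (95% interval -0.07 to 2.83, edgeR adjusted p = 0.316) and 0.18 without VQ28OE9 replicate 3. Against VQ28KO12, where no library overlapped, it was 2.54 ± 0.68 (1.03 to 4.06, adjusted p = 0.0560), and 1.34 without VQ28OE9 replicate 3. Within VQ28OE9 its SD on the log2(FPKM + 1) scale exceeded that of 99.6% of tested genes.

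WT replicate 3 and VQ28OE9 replicate 3, the libraries that stood apart, were also the highest 2 of the 9 for PBS3 among the members and for 7 of the 38 tested genes of the pathway lists described below, a pattern noticed after their values were seen. Of all tested genes 4.12% showed it. The 7 were ICS2, EPS1, UGT74F2, BSMT1, MES9, WRKY70 and ALD1. ICS2, the second isochorismate synthase gene, stood at 16.4 and 30.4 FPKM in them against 4.58 to 9.43 in the other 7 libraries. BSMT1, which methylates salicylic and benzoic acid, stood at 295.7 and 349.3 against 29.6 to 113.0. The glucosyltransferase gene UGT74F2 stood at 38.4 and 34.1 against 12.4 to 21.1, and the methyl esterase gene MES9 at 5.63 and 14.2 against 2.51 to 4.66. EDS1 did not share this pattern, being lowest of all in WT replicate 3.

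**Figure D3:**
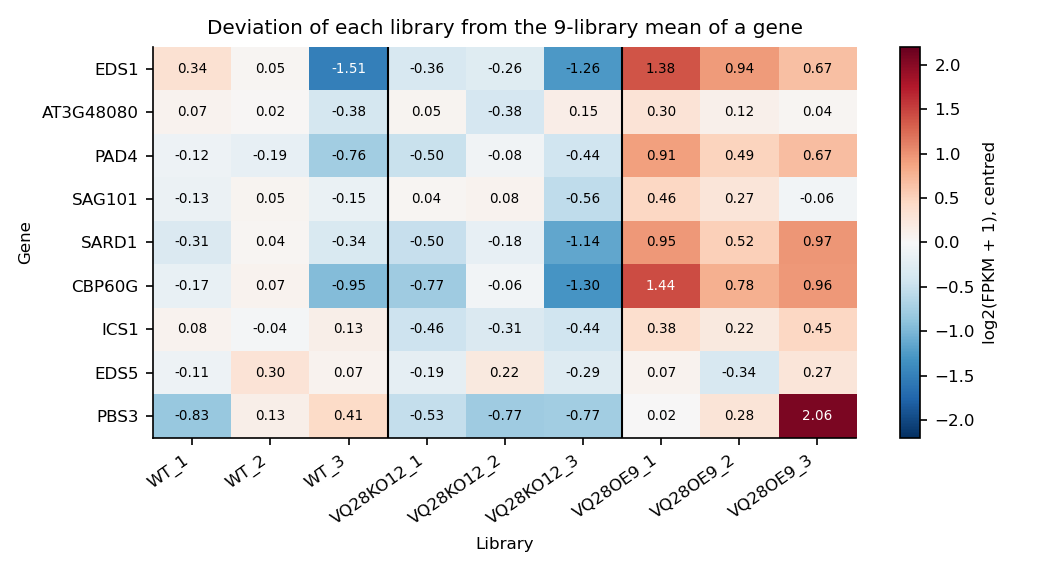
Deviation of each library (columns) from the 9-library mean of a gene (rows), in log2(FPKM + 1), with red for higher and blue for lower and the value printed in each cell. The VQ28OE9 columns are positive for EDS1, PAD4, SARD1, CBP60G and ICS1, and PBS3 is highest in VQ28OE9 replicate 3 at 2.06.

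The mean level followed the order VQ28KO12, WT, VQ28OE9 in 7 of 9 members, with AT3G48080 and EDS5 as exceptions, and in 18.7% of all tested genes. No member's difference between VQ28KO12 and WT passed by edgeR, and the PAD4 means of both were 6.82 FPKM, with a difference whose sign turned between settings. VQ28OE9 replicate 1 was the highest library for 5 members, VQ28OE9 replicate 3 for 3 and WT replicate 2 for EDS5. WT replicate 3 and the library labelled VQ28KO12 replicate 3 were each the lowest for 3 members. In WT the order of levels was EDS5 (32.7 ± 4.73 FPKM), EDS1 (9.28 ± 5.53), CBP60G (7.10 ± 2.70), PAD4 (6.82 ± 1.76), ICS1 (6.35 ± 0.431), SAG101 (5.82 ± 0.539), SARD1 (5.36 ± 0.968), PBS3 (2.37 ± 1.34) and AT3G48080 (2.33 ± 0.545). From EDS1 down to SARD1 each mean lay within 1 SD (the larger of the pair) of the next, as did PBS3 and AT3G48080, whereas EDS5 stood clear of all others. In VQ28OE9 the order was EDS5 (31.0 ± 6.67), EDS1 (22.7 ± 6.03), CBP60G (19.99 ± 5.10), PAD4 (14.9 ± 2.33), SARD1 (11.9 ± 2.16), ICS1 (8.03 ± 0.721), SAG101 (7.45 ± 1.52), PBS3 (6.23 ± 5.999) and AT3G48080 (2.93 ± 0.367).

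Against WT, 8 of the 9 members had a positive log2 fold change in VQ28OE9, with a median of 1.12, beside a median of 0.00 over all 16050 tested genes. Between VQ28OE9 and VQ28KO12 all 9 were positive, with a median of 1.16 beside -0.01. In VQ28KO12 against WT 8 of 9 were negative, with a median of -0.44 beside 0.00. There edgeR called 0 of them, with 1 at an unadjusted p under 0.05 (ICS1) and 1 called by DESeq2. Of all tested genes 50.4%, 51.0% and 49.7% were negative in these 3 comparisons, in the order given. At an unadjusted p under 0.05 there were 5 members in VQ28OE9 against WT, beside 17.4% of all tested genes, and 6 against VQ28KO12, beside 21.2%. For VQ28KO12 against WT that share was 5.03%. These 3 comparisons share libraries and are not independent of each other. The 9 members were measured in the same libraries, so their directions are not 9 separate results.

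**Figure D4:**
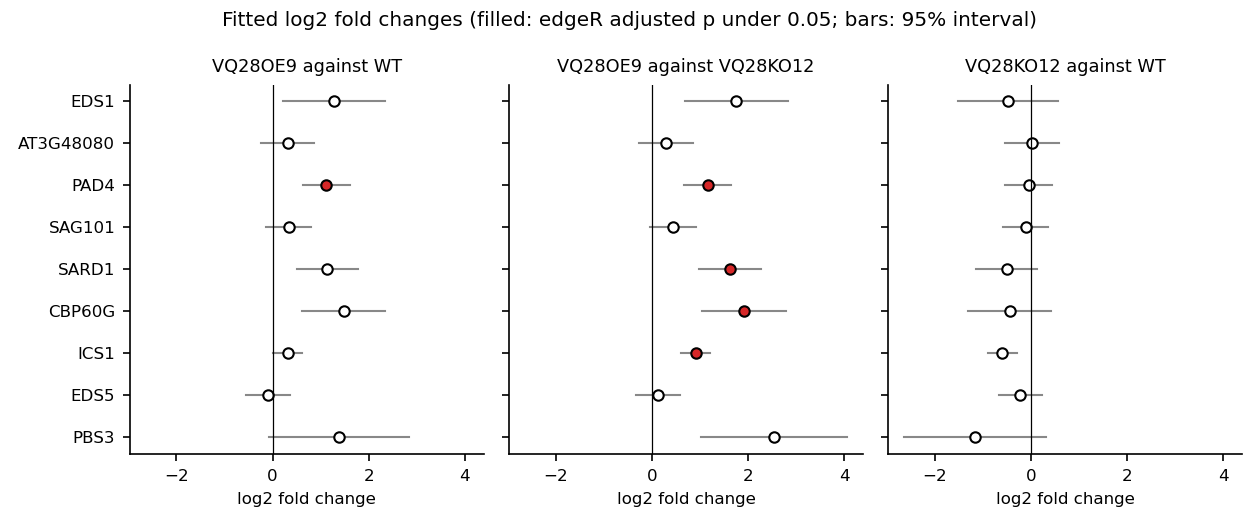
Fitted log2 fold change of each of the 9 genes (horizontal axes, points) with its 95% interval (bars) in the 3 comparisons. Filled points passed an edgeR adjusted p of 0.05, which PAD4 did in VQ28OE9 against WT and PAD4, SARD1, CBP60G and ICS1 did in VQ28OE9 against VQ28KO12.

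The 4 calls between the lines rested on single libraries to different degrees. Without the library labelled VQ28KO12 replicate 1 none of the 9 passed, although the log2 fold changes of PAD4, SARD1, CBP60G and ICS1 were 1.05, 1.65, 1.82 and 0.86. Without the library labelled VQ28KO12 replicate 3, or without VQ28OE9 replicate 1, SARD1 and ICS1 passed and PAD4 and CBP60G did not. Without WT replicate 3 and VQ28OE9 replicate 3 together, 5 members passed, EDS1 in addition.

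The other genes of the pathway were described from 5 lists of known members. Among the partners and helper receptors of EDS1, 7 of 9 were tested and none changed in VQ28OE9 against WT by edgeR (2.31% of all tested genes). Higher in VQ28OE9 than in VQ28KO12 were 3 of the 7, beside 3.71% of all tested genes. The helper receptor genes ADR1-L1 and ADR1-L2, which act with EDS1 and PAD4, stood at 31.5 ± 4.87 and 29.3 ± 4.31 FPKM in VQ28OE9, against 19.3 ± 2.13 and 16.3 ± 2.85 in VQ28KO12 and 21.4 ± 3.21 and 18.9 ± 1.21 in WT. Their log2 fold changes between the lines were 0.73 ± 0.16 (edgeR adjusted p = 0.0265) and 0.88 ± 0.16 (0.0164). NUDT7, a hydrolase that dampens EDS1 signalling, stood at 210.8 ± 34.9 FPKM in VQ28OE9 against 110.9 ± 37.0 in VQ28KO12 (0.96 ± 0.24, edgeR adjusted p = 0.0459) and 118.2 ± 25.6 in WT. The 4 other tested genes ADR1, NRG1.1, NRG1.2 and NDR1 did not pass in any comparison.

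Among 15 regulators reported to act on ICS1, SARD1 or CBP60G, all tested, 1 rose in VQ28OE9 against WT, beside 1.37% of all tested genes. Higher than in VQ28KO12 were 4 of the 15, beside 3.71% of all tested genes. TGA1, a bZIP factor that promotes SARD1 and CBP60G expression, stood at 3.60, 3.25 and 4.18 FPKM in WT, at 2.81, 3.86 and 2.93 in VQ28KO12 and at 7.68, 11.7 and 12.5 in VQ28OE9. It rose by 1.51 ± 0.21 against WT (edgeR adjusted p = 0.0128) and was higher by 1.76 ± 0.21 than in VQ28KO12 (0.00533), and it passed in both comparisons in all 19 alternative settings. Its close relative TGA4 stood at 2.94 ± 0.315 FPKM in WT and 3.16 ± 0.653 in VQ28OE9, a log2 fold change of 0.08 ± 0.20 with an interval of -0.36 to 0.52. WRKY28, WRKY46 and CBP60A, the last a repressor of the same family as CBP60G, were the others higher than in VQ28KO12, by 1.42 ± 0.23, 1.297 ± 0.30 and 1.33 ± 0.30 (edgeR adjusted p = 0.0131, 0.0328 and 0.0299). CBP60A stood at 41.1 ± 8.76 FPKM in VQ28OE9, 16.7 ± 4.67 in VQ28KO12 and 19.4 ± 7.14 in WT. WRKY28 and WRKY46 stood at 15.2 ± 2.41 and 10.2 ± 1.87 FPKM in VQ28OE9 against 5.84 ± 0.576 and 4.27 ± 1.86 in VQ28KO12. In WT they stood at 7.76 ± 2.57 and 4.14 ± 0.410. For CBP60A, WRKY28 and WRKY46 every VQ28OE9 library also lay above every WT library, though none of them passed against WT by edgeR. Such a separation from WT was seen upward in 13% of all tested genes and downward in 9.24%. EIL1 went the other way, at 12.4 to 19.9 FPKM in VQ28OE9 and 20.9 to 24.4 in WT, and did not pass (edgeR adjusted p = 0.123). TCP9 lay lower in every VQ28OE9 library than in every VQ28KO12 library, at 31.0 to 38.3 against 47.0 to 49.7 FPKM, and overlapped with WT. The salicylic acid receptor gene NPR1 stood at 23.6 ± 3.96 FPKM in VQ28OE9 and 19.6 ± 3.66 in WT and did not pass.

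Of the 6 other salicylic acid synthesis genes, all tested, none changed in any of the 3 comparisons by edgeR. PAL4, a phenylalanine ammonia-lyase gene, had the smallest p in VQ28OE9 against WT, at 13.3 ± 3.85 against 9.07 ± 0.924 FPKM (adjusted p = 0.191). The abundant PAL1 and PAL2 stood at 376 ± 92.6 and 393 ± 3.03 FPKM in VQ28OE9 against 451 ± 96.4 and 395 ± 124 in WT. Of 7 genes of salicylic acid modification and breakdown, 5 were tested. Among them DLO1, the salicylic acid 3-hydroxylase gene, was alone called higher in VQ28OE9 than in VQ28KO12, beside 3.71% of all tested genes. It stood at 3.39, 5.99 and 10.4 FPKM in VQ28OE9, at 1.27, 1.77 and 1.45 in VQ28KO12 and at 2.16, 2.59 and 1.96 in WT, with no overlap of VQ28OE9 with either. Its log2 fold change was 2.16 ± 0.37 between the lines (edgeR adjusted p = 0.0144) and 1.54 ± 0.36 against WT (0.0592). DMR6, the 5-hydroxylase gene, stood at 27.4 ± 6.03 FPKM in VQ28OE9 and 36.8 ± 8.32 in WT and did not pass.

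The salicylic acid response and pipecolic acid list held no gene that changed by edgeR among its 5 tested members of 8, in any comparison. The pathogenesis-related genes PR2 and PR5 stood at 134 ± 67.4 and 7.78 ± 0.983 FPKM in VQ28OE9 against 151 ± 67.2 and 9.85 ± 1.54 in WT, and the regulator gene WRKY70 at 17.0 ± 4.83 against 16.6 ± 4.73. The median log2 fold change of the list in VQ28OE9 against WT was -0.04, beside 0.61 for the partners and helper receptors, 0.25 for the regulators, -0.14 for the other synthesis genes and -0.21 for modification and breakdown. Where no gene of a list passed, the smallest p belonged in VQ28OE9 against WT to ADR1-L2 (edgeR adjusted p = 0.0742) and PR5 (0.421) besides PAL4 and DLO1, and between the lines to PAL4 (0.108) and PR2 (0.411). In VQ28KO12 against WT it belonged to ADR1-L2, EPS1, UGT74F2, WRKY28 and PR2, with edgeR adjusted p between 0.983 and 0.9997. PR1 was too low to be tested, with 0 units in 4 libraries and at most 3.65 FPKM.

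Of the 8 pathway genes called between the lines, TGA1 alone passed without either of the libraries labelled VQ28KO12 replicates 1 and 3. ADR1-L1, ADR1-L2, NUDT7, WRKY28, WRKY46, CBP60A and DLO1 each lost the call without either 1 of them. ADR1-L1, ADR1-L2, NUDT7, WRKY46 and CBP60A also lost it without VQ28OE9 replicate 1, ADR1-L1, NUDT7 and CBP60A without VQ28OE9 replicate 2, NUDT7 and WRKY46 without VQ28OE9 replicate 3, and NUDT7 without WT replicate 1.

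**Figure D5:**
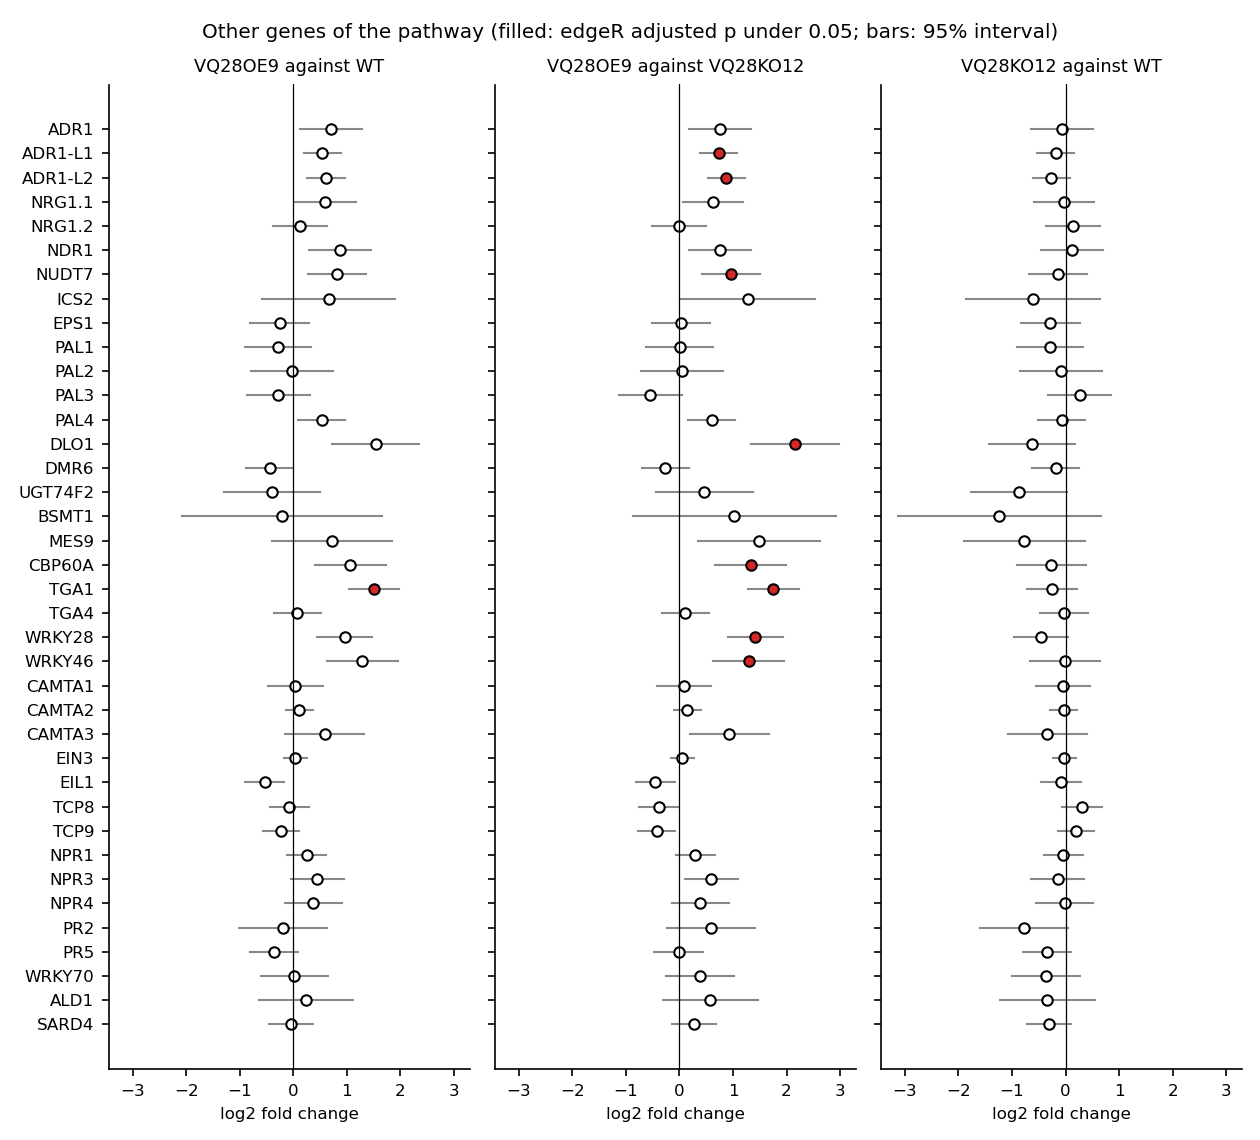
Fitted log2 fold changes (horizontal axes, points) with 95% intervals (bars) of the 38 tested genes of the 5 pathway lists in the 3 comparisons. Filled points passed an edgeR adjusted p of 0.05, which TGA1 did against WT and 8 genes did between the lines. Of all tested genes 2.31% and 6.33% passed in these comparisons.

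Genes outside the 9 with the nearest pattern were found by the root mean square difference of centred log2(FPKM + 1) values over the 9 libraries, among 10597 genes with a mean of at least 5 FPKM. Nearest to PAD4 were the calcium pump gene ACA1 (0.12), the receptor-like kinase gene SERK5 (0.12), the ubiquitin ligase gene PUB39 (0.12), the kinase gene S6K2 (0.13) and PTI1-4 (0.13). Nearest to CBP60G were the lectin receptor kinase gene LECRKA4.1 (0.17), AT1G56060 (0.17), BCS1 (0.19), WRKY33 (0.19) and the calmodulin-like gene CML38 (0.19). The PAD4 and CBP60G profiles themselves had a root mean square deviation of 0.54 and 0.87. Nearest to ICS1, whose own deviation was 0.32, were ETFBETA (0.08), an electron transfer flavoprotein gene, LPAT4 (0.10), the cysteine protease gene RD19 (0.12), the copper chaperone gene CCH (0.12) and the kinase gene AT2G23450 (0.12). RD19 stood at 165 ± 21.1 FPKM in WT, 116 ± 15.6 in VQ28KO12 and 199 ± 10.8 in VQ28OE9, the same order of genotypes as ICS1.

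The members' annotation in part restates why they were chosen and is given as a description. In the deposited table EDS1, PAD4, SAG101 and ICS1 carry the term leaf abscission, which 8 genes of the table carry in all, and defense response to Gram-negative bacterium, which 20 carry. SARD1, CBP60G and PAD4 carry regulation of salicylic acid biosynthetic process, with 12 genes in all.

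The 250 bases before the RefSeq gene start (TAIR10.1) were searched on both strands for TTGAC, the core of the W-box that WRKY factors bind, TGACG, the core bound by TGA factors, CGCGT, a core bound by CAMTA factors, and GAAATTT, bound by SARD1 and CBP60G. TTGAC occurred in 5 of the 9 windows, EDS1, AT3G48080, SAG101, SARD1 and EDS5, and in 44.9% of 27443 windows of the same length before protein-coding genes. Of these windows, that of AT3G48080 overlaps the EDS1 gene and that of SAG101 overlaps AT5G14920. TGACG occurred in SARD1 alone of the 9 and in 18.6% of all windows, CGCGT also in SARD1 alone and in 6.87%, and GAAATTT in ICS1 alone and in 12.5%. SARD1 had 4 matches to TTGAC and 3 to TGACG, 2 of each overlapping in 1 palindrome that starts 213 bases before the gene. The matches to GAAATTT in ICS1 start 129 and 96 bases before the gene. No match in PAD4 and CBP60G says only that these letters are not in these windows. The windows lie before the RefSeq gene start, which can differ from the deposited one given above. For PAD4 these starts are 19431095 and 19431371, and for EDS1, on the minus strand, 17758147 and 17757780. Both windows thus lie further upstream than the deposited coordinates would place them. The windows of the 4 members higher in VQ28OE9 than in VQ28KO12 are shown 5′ to 3′ on the strand of the gene, with every match to the 4 motifs in capitals, at chr1:27749249-27749498 (minus strand), chr1:28070045-28070294 (plus), chr3:19430845-19431094 (plus) and chr5:9475429-9475678 (plus).
SARD1: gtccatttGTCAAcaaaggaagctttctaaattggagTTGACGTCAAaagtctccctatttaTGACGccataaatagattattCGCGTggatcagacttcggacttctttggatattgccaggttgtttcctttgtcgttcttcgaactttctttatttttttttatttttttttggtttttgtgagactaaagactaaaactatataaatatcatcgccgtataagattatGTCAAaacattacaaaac
ICS1: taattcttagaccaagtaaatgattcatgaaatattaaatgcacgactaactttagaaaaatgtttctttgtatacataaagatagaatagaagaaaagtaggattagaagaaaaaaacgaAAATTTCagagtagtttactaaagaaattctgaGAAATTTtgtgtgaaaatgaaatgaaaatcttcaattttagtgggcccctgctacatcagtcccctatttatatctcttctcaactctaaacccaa
PAD4: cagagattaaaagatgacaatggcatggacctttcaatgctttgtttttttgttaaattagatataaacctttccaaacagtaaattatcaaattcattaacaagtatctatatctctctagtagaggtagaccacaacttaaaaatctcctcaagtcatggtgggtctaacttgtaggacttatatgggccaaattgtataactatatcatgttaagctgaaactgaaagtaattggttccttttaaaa
CBP60G: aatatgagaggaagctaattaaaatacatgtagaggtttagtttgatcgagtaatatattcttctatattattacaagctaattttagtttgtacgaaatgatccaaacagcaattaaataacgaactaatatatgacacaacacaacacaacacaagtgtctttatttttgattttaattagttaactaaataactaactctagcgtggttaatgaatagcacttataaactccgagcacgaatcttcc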

How the data were processed

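Poly(A) RNA from rosette leaves was sequenced in strand-marked paired libraries, per the labels' protocols. The authors deposited 1 table with an FPKM and a whole-number count per gene and library, per the file headers. The sources used here name no aligner, counter or genome build. The deposited values were handled as estimated counts and are called units, because 48.7% to 57.0% of values from 1 to 16 are multiples of 4, where chance gives 25%. A gene without counts is listed at an FPKM of 0.0001.

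The main test was edgeR 4.0.16 (R 4.3.3) in quasi-likelihood mode with TMM normalization on the units, 1 mean per genotype over all 9 libraries, for 16050 genes whose FPKM averaged 1 or more. Standard errors come from the log2 fold change and its F statistic, and 95% intervals use the fitted degrees of freedom. Permutation tests (scipy 1.17.1) were exact and two-sided. Alternatives were DESeq2 1.42.0, limma 3.58.1, other filters and scalings, and leaving out libraries. The steps were also run on simulated data, whose outcome is not given here and is not used to back the calls. Sequences and names are from RefSeq, TAIR10.1. Of the deposited genes 27996 matched its gene models by locus tag, and each overlapped its namesake on the same chromosome. The ends often differed, with both the same in 5977 of them and at least 1 the same in 13993. Members and lists were chosen with earlier results of these data known. Named are all 9 members, up to 4 called genes per list and comparison or else the gene with the smallest p, and the 5 nearest genes to PAD4, ICS1 and CBP60G; other list genes were named after their values were seen.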

Additional observations from a re-analysis of the deposited data

How the results depend on the processing

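With DESeq2, 1358 genes were called in VQ28OE9 against WT (370 in edgeR), 39 in VQ28KO12 against WT (1 in edgeR) and 1957 between the lines (1016 in edgeR), and 4, 1 and 6 of the 9 members. With only the 6 libraries compared, 163 genes and 0 members were called in VQ28OE9 against WT and 2 genes in VQ28KO12 against WT. Without WT replicate 3 and VQ28OE9 replicate 3 together, 94 genes and 0 members were called against WT, and 5 members between the lines. In VQ28KO12 against WT the count was 2 genes without a filter on low values, 0 with a mean FPKM of at least 5, 3 with limma on log2(FPKM + 1) and 3 with the units divided by 4, an alternative chosen after seeing the data. With 1 library left out in turn, 46 to 337 genes and 0 to 1 members were called in VQ28OE9 against WT, 1 to 4 genes and 0 members in VQ28KO12 against WT, and 131 genes (without VQ28KO12 replicate 1) to 1241 and 0 to 5 members between the lines; the cause was not tested.

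Same-numbered libraries did not deviate together in every pair (correlations of deviations -0.20 to 0.31), so the numbers are not taken to pair the libraries. With the replicate block, 468, 1 and 1055 genes and 3, 0 and 5 members were called in VQ28OE9 against WT, VQ28KO12 against WT and between the lines; against WT these were PAD4, EDS1 (edgeR adjusted p = 0.0430) and CBP60G (0.0435).

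Directions turned only for values that passed no test, of EDS5, PAD4, AT3G48080, SAG101 and VQ28. In VQ28KO12 against WT the log2 fold change of PAD4 was 0.0146 and 0.0194 by limma on log2(FPKM + 1) and log2(FPKM + 0.1), that of VQ28 -0.0210 and -0.65, and that of AT3G48080 -0.16 without WT and VQ28OE9 replicates 3, where EDS5 between the lines was -0.0275. With 1 library left out the ranges were -0.25 to 0.0829 for EDS5 in VQ28OE9 against WT and -0.0329 to 0.30 between the lines. In VQ28KO12 against WT they were -0.24 to 0.0806 for PAD4, -0.17 to 0.22 for AT3G48080, -0.24 to 0.0798 for SAG101 and -0.44 to 0.73 for VQ28.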

Other observations

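Outside the comparisons, PR1, FMO1, NIMIN1 and WRKY54, genes known to follow salicylic acid signalling, had a mean under 1 FPKM over the 9 libraries of these uninfected leaves. They were not tested. PR1, a common marker of the hormone, had 0 units in 4 of the 9 libraries, 2 of WT and 2 of VQ28KO12, and stood at 0.206, 3.11 and 3.65 FPKM in VQ28OE9 replicates 1 to 3 and at 1.16 FPKM in WT replicate 2. FMO1, an EDS1-dependent gene of systemic resistance, did not exceed 0.189 FPKM in any library. NIMIN1, a repressor that binds NPR1, stood at 0.129 to 0.301 FPKM in WT and at 0.0889 to 0.175 in VQ28OE9. It had 0 units in all 3 libraries labelled VQ28KO12. With a mean of 0.108 FPKM over the 9 libraries it lay near the floor, and no difference between genotypes is read from these values. How many other genes this low show such a split was not counted. WRKY54 overlapped between the genotypes, at 0.757 ± 0.294 FPKM in WT, 0.863 ± 0.0507 in VQ28KO12 and 0.585 ± 0.403 in VQ28OE9.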
